A study of Mus musculus with 8 samples.

Results

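The genes described here encode cathepsins, other hydrolases, lipid carriers, membrane proteins and a transcription factor of the lysosome, measured in mouse cumulus oocyte complexes with and without a working progesterone receptor (PR). The 48 members were taken by gene symbol from a list of lysosomal genes, each by its probe set with the highest mean signal, out of 19938 genes measured. A cumulus oocyte complex is the oocyte with the cumulus granulosa cells around it. PRKO mice were homozygous for a lacZ insertion in the PR gene that stops transcription of both receptor isoforms. PR+/- mice carried the same insertion on 1 allele only and are described by the submitters as equal to wild type in phenotype and fertility, so no animal of the comparison was free of the insertion. It is a knock-in carried by the whole animal and not limited to cumulus cells. All mice were 21 to 23 days old, before puberty, and received 5 IU of equine chorionic gonadotropin, then 5 IU of human chorionic gonadotropin (hCG) 44 to 47 h later. Complexes were collected 8 h after hCG. Each genotype had 4 whole-transcript arrays, each of complexes pooled from 3 of 12 animals, and these 4 pools are the replicates behind every SD and n.

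Lysosomes are acidic organelles in which proteins, glycolipids, glycosaminoglycans, glycogen and lipoprotein lipids are broken down. Their proteases, the cathepsins, are made as inactive precursors, are activated in acid and are in part secreted. Glycolipids need small activator proteins, such as the saposins cut from prosaposin and the GM2 activator, which lift the lipid out of the membrane for the hydrolase. TFEB and its relatives switch on many of these genes through a CACGTG-centred promoter element. In the ovary, granulosa cells make PR for a short time after the ovulatory gonadotropin surge, and cathepsin L is known as one of the proteases that depend on it in mouse follicles.

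Values are log2 signals, so a difference of 1 is a doubling, and differences are PRKO minus PR+/-. The median signal per array was 5.35 to 5.46 over all probe sets, and arrays correlated at 0.992 to 0.995 within a genotype. Pgr, which encodes PR, had 5.84, 5.23, 5.54 and 6.17 in PRKO arrays, against 6.09, 7.34, 6.54 and 7.15 in PR+/- arrays, with a limma adjusted p of 0.0452. The genotypes overlapped for Pgr, and no source used here places its probe set before or after the insertion. Markers of cumulus cells and of oocytes were present: the mean over 11 cumulus granulosa markers was 9.54 to 10.04 in PRKO and 9.40 to 9.95 in PR+/- arrays, and that over 13 oocyte markers was 6.05 to 6.65 in PRKO and 6.01 to 6.82 in PR+/-. None of these markers had a limma adjusted p under 0.05. At an unadjusted p under 0.05 in limma were 3 of the 11, Amhr2 (0.45), Foxl2 (-0.33) and Nr5a2 (-0.30). Of the 13, 2 were, Kit (-0.41) and Npm2 (-0.23). These are 27.3% and 15.4%, beside 16.0% of all genes. The genotypes did not overlap for Foxl2 and Kit. Of 7 endothelium markers, 0 had an unadjusted p under 0.05 in limma. In such pooled tissue, fewer cells of a type and less RNA per cell cannot be told apart.

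Of the 48 lysosomal transcripts, 5 differed between PRKO and PR+/- complexes, and in both directions. Gm2a, Lgmn and Ctsz rose in PRKO complexes by 1.13, 0.72 and 0.54 (log2), or 2.18-, 1.64- and 1.45-fold. Ctsl and Psap fell by 0.64 and 0.51 (log2), or 1.56- and 1.42-fold. The other 43 members did not pass the test, limma with Benjamini-Hochberg adjustment over all 21789 probe sets and a threshold of adjusted p under 0.05. The 5 calls are 10.4% of the 48 members, beside 2.92% of all 19938 genes. The members were chosen with earlier results of these data known, so this share and those below describe the list and test nothing. By direction, 3 members were called higher, beside 1.43% of all genes, and 2 lower, beside 1.48%. The median difference of the members was 0.11, with 29 of 48 positive (60.4%), while over all genes the median was 0.004 and 51.3% were positive. The PRKO and PR+/- arrays did not overlap for 14 members, 12 higher and 2 lower (29.2%), beside 10.2% of all genes, 6.08% higher and 4.12% lower. At an unadjusted p under 0.05 in limma there were 17 members, 14 higher and 3 lower (35.4%), beside 16.0% of all genes, 9.3% higher and 6.72% lower.

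**Figure D1:**
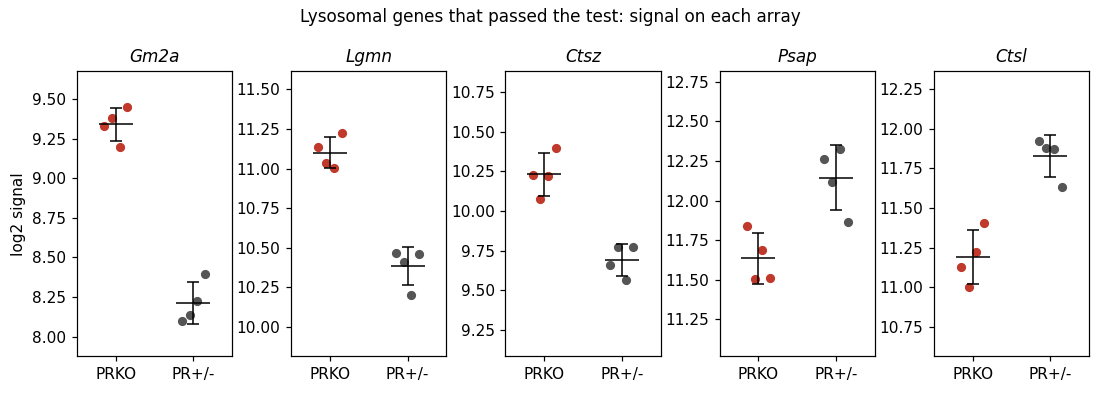
Signal (log2) of the 5 lysosomal genes that passed the test, 1 point per array, with the mean and SD of 4 PRKO and 4 PR+/- arrays; each vertical axis has its own level and the same span. Gm2a, Lgmn and Ctsz are higher on all 4 PRKO arrays and Psap and Ctsl lower on all 4, with no overlap between genotypes.

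The 15 proteases held 3 of the 5 calls, which is 20% of them, beside 2.92% of all genes. At an unadjusted p under 0.05 in limma were 6 proteases (40%, beside 16.0% of all genes). Ctsl encodes cathepsin L, a papain-type cysteine endopeptidase. Its signal was 11.13, 11.001, 11.22 and 11.41 in PRKO arrays, against 11.92, 11.88, 11.87 and 11.63 in PR+/- arrays. All PRKO arrays lay below all PR+/- arrays, and the nearest pair was replicate 4 of each genotype. The difference was -0.64 ± 0.10 (SE, n = 4 against 4; 95% interval -0.86 to -0.42), with a limma adjusted p of 0.00549. Lgmn encodes legumain, an endopeptidase that cuts after asparagine and also processes cathepsin precursors. It had 11.14, 11.04, 11.01 and 11.22 in PRKO arrays, against 10.47, 10.41, 10.20 and 10.46 in PR+/- arrays. The lowest PRKO array lay 0.54 above the highest PR+/- array. The difference of 0.72 ± 0.09 (95% interval 0.52 to 0.91) had a limma adjusted p of 0.00109. Ctsz encodes cathepsin Z, also called X, a papain-type carboxypeptidase. It had 10.23, 10.07, 10.22 and 10.40 in PRKO arrays, against 9.66, 9.77, 9.56 and 9.77 in PR+/- arrays. Here too no array crossed to the other genotype. The difference was 0.54 ± 0.09 (95% interval 0.34 to 0.74), with a limma adjusted p of 0.00714.

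The cathepsin L gene is the member with the largest fall, and the 250 bases before its start are shown because they hold the TFEB-type hexamer CACGTG, given in capitals. The window lies at chr13:64370521-64370770 on the minus strand (RefSeq, GRCm38.p6), and its hexamer covers bases 236 to 231 before the start.
Ctsl: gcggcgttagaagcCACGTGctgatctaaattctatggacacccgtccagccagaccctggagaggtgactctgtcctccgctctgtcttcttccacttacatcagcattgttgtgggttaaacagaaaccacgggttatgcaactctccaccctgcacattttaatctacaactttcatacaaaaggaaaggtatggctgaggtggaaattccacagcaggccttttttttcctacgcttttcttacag

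Of the 10 papain-type cathepsins, then, 1 rose, 1 fell and 8 did not pass. The 2 calls are 20% of them, beside 2.92% of all genes. At an unadjusted p under 0.05 in limma were 4 of the 10 (40%, beside 16.0% of all genes). Among the 8, Ctso, a member of the same family, was nearest to the threshold. It had 6.29, 6.50, 6.52 and 6.39 in PRKO arrays, against 5.99, 5.95, 5.72 and 6.29 in PR+/- arrays. PRKO replicate 1 and PR+/- replicate 4 were almost equal, and the difference of 0.44 ± 0.11 (SE) had a limma adjusted p of 0.0660. Ctsb, another widely expressed cysteine cathepsin, was at 0.20 ± 0.09 (adjusted p = 0.298). Ctsc, which activates granule serine proteases in leukocytes, had the widest spread of all 48 members: 9.67, 8.60, 9.30 and 9.29 in PRKO arrays, against 10.05, 9.23, 9.73 and 8.65 in PR+/- arrays. Replicate 1 was high in each genotype, PRKO replicate 2 and PR+/- replicate 4 were low, and the difference was -0.20 ± 0.27. The remaining 5 were Ctsf, Ctsh, Ctsk, Ctss and Ctsw, with differences between -0.09 and 0.19. The aspartic protease Ctsd was at 0.18 ± 0.08 (adjusted p = 0.280), with all 4 PRKO arrays, at 9.51 to 9.61, above all 4 PR+/- arrays, at 9.25 to 9.49. The serine peptidases Ctsa, which also shields the galactosidase and sialidase from degradation, and Tpp1 were at 0.13 and 0.15. Cst3, which encodes cystatin C, a secreted inhibitor of cysteine cathepsins, had 9.44 to 9.81 in PRKO arrays, against 9.25 to 9.63 in PR+/- arrays. Those ranges overlapped, and its difference of 0.24 ± 0.11 did not pass (adjusted p = 0.297).

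Some members are known from leukocytes and osteoclasts. Of the 48, 5 had low signals: Ctsk, Ctss, Ctsw, Ctse and Arsa lay below the array median on all 8 arrays, and Ctse, an aspartic protease of stomach and immune cells, below the lower quartile on 7 of 8. Ctsc and Cd68, also known from leukocytes, were above the median on every array. Of 15 macrophage and leukocyte markers, 1 of which (Laptm5) is also a lysosomal membrane gene, 0 passed in limma, and 0 had an unadjusted p under 0.05. Their mean was 4.12 to 4.16 in PRKO and 4.13 to 4.16 in PR+/- arrays, and their summed linear signal was 276 to 283 in PRKO and 279 to 287 in PR+/- arrays. Of the 15, Adgre1, Cd163 and Itgam were below the lower quartile on every array, and 5 (Csf1r, C1qa, C1qc, Tyrobp and Laptm5) were below it on none. Theca and stroma markers moved with genotype to a degree: 9 of 10 had positive differences (90%, beside 51.3% of all genes), and 0 passed. At an unadjusted p under 0.05 in limma were 4 (40%, beside 16.0% of all genes), namely Col3a1, Dcn, Acta2 and Tagln. The 1 negative difference was that of Cyp17a1 (-0.08). The mean of the 10 was 5.48 to 6.04 in PRKO and 5.38 to 5.70 in PR+/- arrays. Their summed linear signal was 591 to 920 in PRKO and 554 to 731 in PR+/- arrays, and Lum and Postn were below the lower quartile on every array. With that mean as a covariate, limma adjusted p was 0.0584 for Ctsz and 0.0860 for Psap. Their differences were then 0.50 and -0.57, beside 0.54 and -0.51 in the main fit. Gm2a, Lgmn and Ctsl passed in the fit with the covariate as well. It called 1.40% of all genes, beside 2.92% in the main fit. What part these cells have in any of the differences was not tested.

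Glycosphingolipid breakdown held the largest rise. Gm2a encodes the GM2 activator, the small protein that presents GM2 ganglioside to beta-hexosaminidase A. Its signal was 9.33, 9.38, 9.20 and 9.45 in PRKO arrays, against 8.10, 8.14, 8.22 and 8.40 in PR+/- arrays. The lowest PRKO array was 0.80 above the highest PR+/- array. The difference of 1.13 ± 0.09 (SE, n = 4 against 4; 95% interval 0.93 to 1.32) had a limma adjusted p of 7.43e-05. Psap encodes prosaposin, the precursor of the saposins, which serve several other glycolipid hydrolases. It had 11.84, 11.50, 11.69 and 11.51 in PRKO arrays, against 12.26, 12.12, 12.33 and 11.87 in PR+/- arrays. PRKO replicate 1 and PR+/- replicate 4 differed by 0.03 only, although no array crossed over. The difference was -0.51 ± 0.11 (95% interval -0.76 to -0.26), with a limma adjusted p of 0.0369. The call for Psap ended when PRKO replicate 2, 3 or 4 or PR+/- replicate 1, 2 or 3 was left out, with limma adjusted p from 0.0813 to 0.114 and differences from -0.53 to -0.45; it also ended when probe sets without a single gene symbol were tested too (0.107). So the activator genes went in opposite directions, and the hydrolases they serve did not pass.

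The Gm2a promoter window is shown as that of the largest rise. It is the 250 bases at chr11:55097735-55097984 on the plus strand (RefSeq, GRCm38.p6) and holds no CACGTG. Capitals mark the GC box GGGCGG, here all as its reverse complement, in 5 copies that begin 218, 161, 147, 105 and 42 bases before the start; this motif was chosen after the sequence was seen.
Gm2a: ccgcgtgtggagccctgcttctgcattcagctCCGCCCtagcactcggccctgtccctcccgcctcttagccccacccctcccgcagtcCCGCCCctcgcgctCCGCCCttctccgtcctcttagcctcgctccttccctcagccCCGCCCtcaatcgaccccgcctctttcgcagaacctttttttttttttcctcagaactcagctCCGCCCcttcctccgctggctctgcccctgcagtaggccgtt

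Hexa, the alpha subunit of the enzyme that works with the GM2 activator, was at 0.07 ± 0.10 (SE; 95% interval -0.15 to 0.29, adjusted p = 0.795), an interval that leaves out a rise as large as that of Gm2a. Asah1, the acid ceramidase, had 9.81, 9.97, 9.84 and 9.93 in PRKO arrays, against 9.27, 9.73, 9.50 and 9.64 in PR+/- arrays. All 4 PRKO arrays were above all 4 PR+/- arrays, and the difference of 0.36 ± 0.10 had a limma adjusted p of 0.0972. Gla, alpha-galactosidase A, had 9.09 to 9.43 in PRKO arrays, against 8.78 to 9.06 in PR+/- arrays. It was also without overlap, at 0.34 ± 0.10 and a limma adjusted p of 0.104. Arsa, arylsulfatase A, which removes the sulfate of sulfatide with a saposin as activator, was at -0.27 ± 0.10 (adjusted p = 0.203). The beta-galactosidase Glb1, the sialidase Neu1, the galactosylceramidase Galc and the sphingomyelinase Smpd1 had differences from -0.10 to 0.10. In all, 1 of the 10 members of this group rose, 1 fell and 8 did not pass. The 2 calls are 20% of the group, beside 2.92% of all genes. At an unadjusted p under 0.05 in limma were 5 of the 10 (50%, beside 16.0% of all genes).

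**Figure D2:**
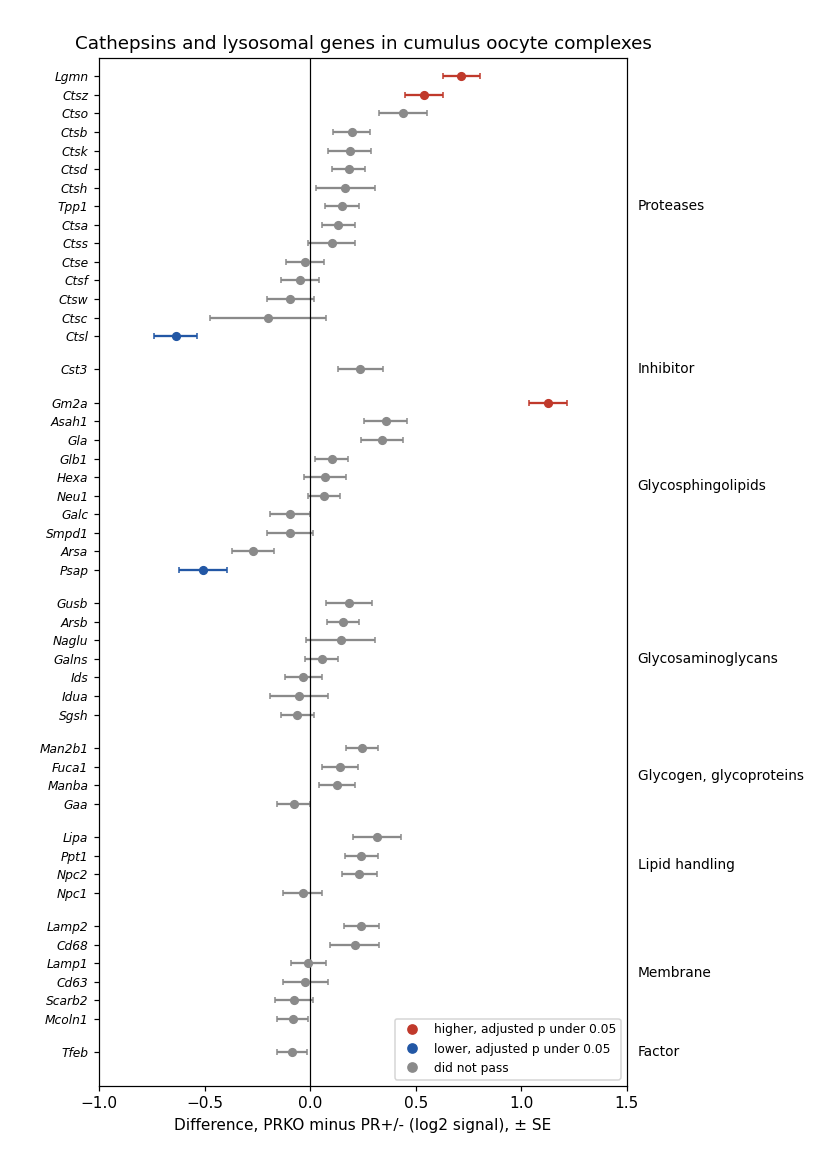
Difference in log2 signal, PRKO minus PR+/-, with its moderated SE for each of the 48 genes, grouped by role from top to bottom. Gm2a (1.13), Lgmn (0.72) and Ctsz (0.54) lie to the right and Psap (-0.51) and Ctsl (-0.64) to the left, while the 7 glycosaminoglycan hydrolases stay between -0.06 and 0.18.

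The glycosaminoglycan hydrolases degrade heparan, dermatan, chondroitin and keratan sulfate. None of the 7 passed in limma, and 0 had an unadjusted p under 0.05, beside 16.0% of all genes. Differences were 0.18 for the beta-glucuronidase Gusb, 0.16 for the sulfatase Arsb, 0.14 for Naglu, 0.05 for Galns, -0.03 for Ids, -0.05 for Idua and -0.06 for Sgsh. Arsb has a second probe set with a difference of -0.08 ± 0.08, of the other sign, and neither passed. Among the glycogen and glycoprotein hydrolases, Man2b1, the lysosomal alpha-mannosidase, had 7.57 to 7.69 in PRKO arrays, against 7.31 to 7.49 in PR+/- arrays. Its arrays did not overlap, and the difference of 0.24 ± 0.08 had a limma adjusted p of 0.128. The fucosidase Fuca1 was at 0.14, the beta-mannosidase Manba at 0.13 and the glycogen-degrading glucosidase Gaa at -0.08. None of the 4 hydrolases of this group passed in limma, and 1 had an unadjusted p under 0.05 (25%, beside 16.0% of all genes).

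Of 4 genes of cholesterol and lipid handling, 3 had PRKO arrays wholly above PR+/- arrays, as did 6.08% of all genes. None of the 4 passed over all genes in limma. Lipa, the acid lipase that frees cholesterol from lipoprotein esters, had 7.43, 7.02, 7.23 and 7.06 in PRKO arrays, against 6.91, 6.60, 6.96 and 7.003 in PR+/- arrays. The gap between PRKO replicate 2 and PR+/- replicate 4 was 0.02, and the difference was 0.32 ± 0.11 (SE, adjusted p = 0.191). Ppt1, which removes palmitate from proteins, was at 0.24 ± 0.08 (adjusted p = 0.133), and Npc2, the soluble cholesterol carrier, at 0.23 ± 0.08 (adjusted p = 0.178). Npc1, the membrane protein that takes cholesterol over from NPC2, was at -0.04 ± 0.09, with a 95% interval from -0.24 to 0.16. All 3 of the higher genes had an unadjusted p under 0.05 in limma, as did 9.3% of all genes in that direction.

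Of 6 membrane proteins of the lysosome and late endosome 0 passed in limma, and 1 had an unadjusted p under 0.05 (16.7%, beside 16.0% of all genes). Lamp1, the abundant membrane glycoprotein often used to mark lysosomes, had 9.62, 9.50, 9.35 and 9.64 in PRKO arrays, against 9.54, 9.59, 9.49 and 9.53 in PR+/- arrays. The PR+/- range lay inside the PRKO range, and the 95% interval of the difference was -0.19 to 0.17. Its relative Lamp2 had 9.66, 9.60, 9.73 and 9.67 in PRKO arrays, against 9.48, 9.49, 9.45 and 9.25 in PR+/- arrays. These did not overlap, with a difference of 0.24 ± 0.08 (SE) and a limma adjusted p of 0.156; whether Lamp2 differs from Lamp1 in its response was not tested. The tetraspanin Cd63, the glucocerebrosidase receptor Scarb2 and the calcium channel Mcoln1 were at -0.02, -0.08 and -0.08. Cd68, a scavenger receptor-like glycoprotein used as a macrophage marker, was at 0.21 ± 0.12 (adjusted p = 0.418). Tfeb, the transcription factor of lysosomal genes, had 5.43, 5.36, 5.43 and 5.50 in PRKO arrays, against 5.53, 5.45, 5.54 and 5.55 in PR+/- arrays. The difference of -0.09 ± 0.07 did not pass (95% interval -0.24 to 0.07, adjusted p = 0.628).

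**Figure D3:**
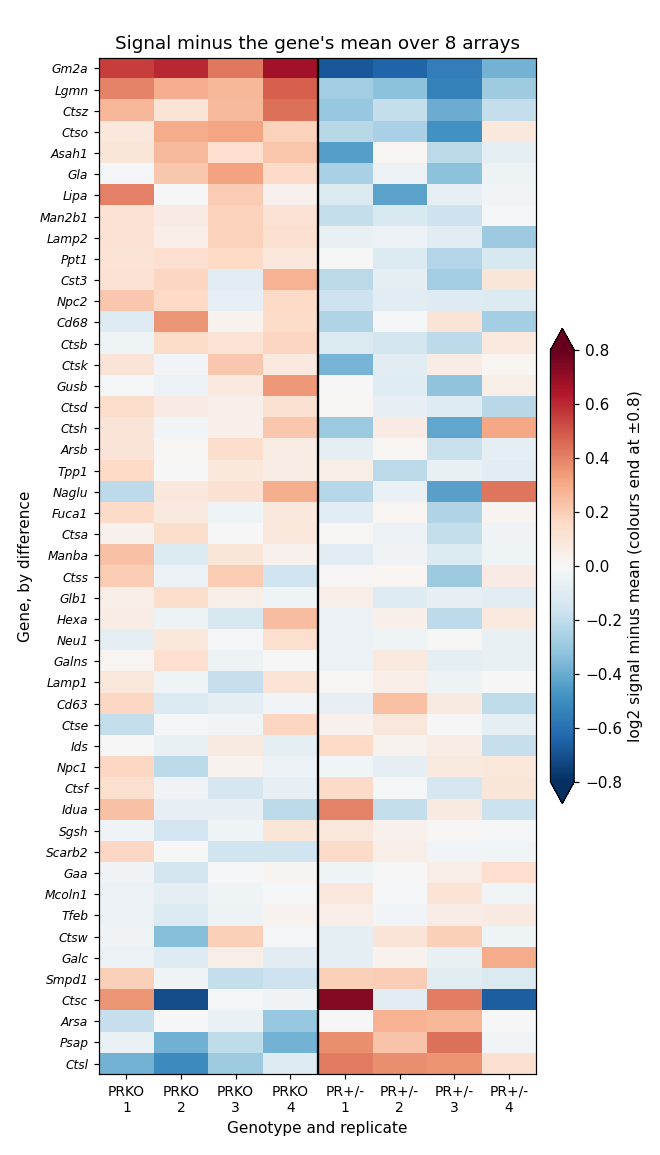
Log2 signal of each of the 48 genes on each array minus that gene's mean over 8 arrays, PRKO arrays on the left, genes ordered by their difference between genotypes; colours end at 0.8 in either direction. The top and bottom rows divide by genotype, and Ctsc stands out by spread within both genotypes.

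Most members varied little between pools of one genotype. The pooled within-genotype SD had a median of 0.12, beside 0.14 over all genes, and was under 0.2 for 44 of 48 members. The 4 others were Ctsc (0.53), Naglu (0.30), Ctsh (0.25) and Idua (0.24). Naglu had 8.13 to 8.63 in PRKO arrays, against 7.90 to 8.77 in PR+/- arrays, so its PR+/- range contained the PRKO range. Standard errors ran from 0.07 for Tfeb to 0.27 for Ctsc, and for Ctsc a fall of the size seen for Ctsl lay within the 95% interval (-0.80 to 0.40).

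The RefSeq table gave promoter windows for 41 of the 48 members, 4 of them with more than 1 window, and the 250 bases before each start were searched on both strands. The hexamer CACGTG was in a window of 13 of these 41 members (31.7%), beside 1266 of 15614 measured genes with a window (8.11%). Among the 5 called genes, Ctsl and Lgmn held it, Lgmn in 1 window but not in its other. Gm2a, Psap and Ctsz did not hold it. Of the 13 holders, Arsa, Ctsa, Ctsd, Ctsf, Gaa, Gla, Glb1, Lamp1, Mcoln1, Naglu and Sgsh did not pass the expression test. The 10-base CLEAR element, in which GT precedes and AC follows the hexamer, was in 0 of 41 members and 0.403% of genes. The palindrome of GNACA and TGTNC with 3 bases between them, the shape of a progesterone or glucocorticoid receptor site, was in 0 of 41 members and 0.416% of genes. GGGCGG was in 22 of 41 members (53.7%) and 49.3% of genes. These shares describe letters in the window and were not matched for base composition or number of windows.

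Other genes of the lysosomal pathway, 137 measured of 147 listed, showed 3 rises and 2 falls, 3.65% beside the 2.92% of all genes. Their median difference was 0.07, with 89 positive and 48 negative (65% positive, beside 51.3% of all genes). The genotypes did not overlap for 28, 23 higher and 5 lower (20.4%, beside 10.2% of all genes). At an unadjusted p under 0.05 in limma there were 34, 28 higher and 6 lower (24.8%, beside 16.0% of all genes). These lists, too, were chosen with earlier results of these data known. Each of the 5 calls was the only one of its list, 3.57% to 6.25% of the genes measured in it, beside 2.92% of all genes. The largest change was in Vps26a, a subunit of the retromer coat that returns sorting receptors from endosomes. It had 8.14, 8.35, 8.05 and 8.10 in PRKO arrays, against 9.41, 9.23, 9.23 and 8.67 in PR+/- arrays. The genotypes did not overlap, and Vps26a fell by 0.98 ± 0.14 (log2, SE), with a limma adjusted p of 0.00298. It was the 1 call among 16 genes of mannose 6-phosphate and sortilin sorting, where Nagpa (0.32), Ap1b1 (-0.28) and Gga2 (0.24) did not pass. Among 23 other hydrolases and cofactors, Pla2g15, a lysosomal phospholipase, fell by 0.51 ± 0.09 (adjusted p = 0.0112), with 7.04 to 7.23 in PRKO arrays, against 7.44 to 7.77 in PR+/- arrays. Creg1 (0.49), Epdr1 (0.45) and the hyaluronidase Hyal2 (0.33) of that group did not pass.

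Among 17 subunits and partners of the proton pump that acidifies the lysosome, 15 had positive differences (88.2%, beside 51.3% of all genes). The median over the 17 was 0.13. Atp6v0d2, a subunit isoform best known from osteoclasts, alone passed, at 0.58 ± 0.14 (SE) and a limma adjusted p of 0.0492. Its signal was low, 4.08 to 4.51 in PRKO arrays, against 3.40 to 4.04 in PR+/- arrays, and the call ended without any 1 array other than PRKO replicate 3 or PR+/- replicate 2 (adjusted p 0.0833 to 0.129). It also ended with the theca and stroma marker mean as a covariate (0.43, adjusted p = 0.248). Atp6ap2 (0.21), Atp6ap1 (0.20) and Atp6v0b (0.20) did not pass. Of 28 further membrane proteins and transporters, the tetraspanin gene Cd81 rose by 0.45 ± 0.10 (adjusted p = 0.0302), and Slc17a5, the sialic acid exporter (0.42), Laptm4b (0.35) and Tmem106b (-0.32) did not pass. Of 25 autophagy genes, Rab7, the GTPase of late endosome fusion, rose by 0.40 ± 0.09 (adjusted p = 0.0450), while Wipi1 (-0.35), Vps18 (0.31) and Wipi2 (0.29) did not pass. The Cd81 call ended without PRKO replicate 2, 3 or 4 or PR+/- replicate 2 or 3 (limma adjusted p 0.0807 to 0.0952), and the Rab7 call without any 1 array other than PR+/- replicate 1 (0.0595 to 0.121). With the theca and stroma marker mean as a covariate, the limma adjusted p of Rab7 was 0.172, and after quantile normalization it was 0.0737.

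None of the 20 genes of TFEB-related factors and nutrient sensing passed in limma, and 2 had an unadjusted p under 0.05: Rragd, a Rag GTPase (0.32), and Flcn, its regulator folliculin (0.25). Those 2 are 10% of the list, beside 16.0% of all genes. Lamtor4 was at 0.20. None of 8 cystatin and other cathepsin inhibitor genes passed, and 0 had an unadjusted p under 0.05. Differences were 0.21 for Cst6, -0.20 for Cst12 and -0.14 for Cstb, which encodes the cytosolic cystatin B. Csta1, Cst7, Cst9 and Kng1 were at most at 3.74 on any array, below the lower quartile of every array (3.92 to 4.00). Cst6 and Cst12 lay on both sides of that level. The lack of calls therefore says little about these low-signal genes.

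**Figure D4:**
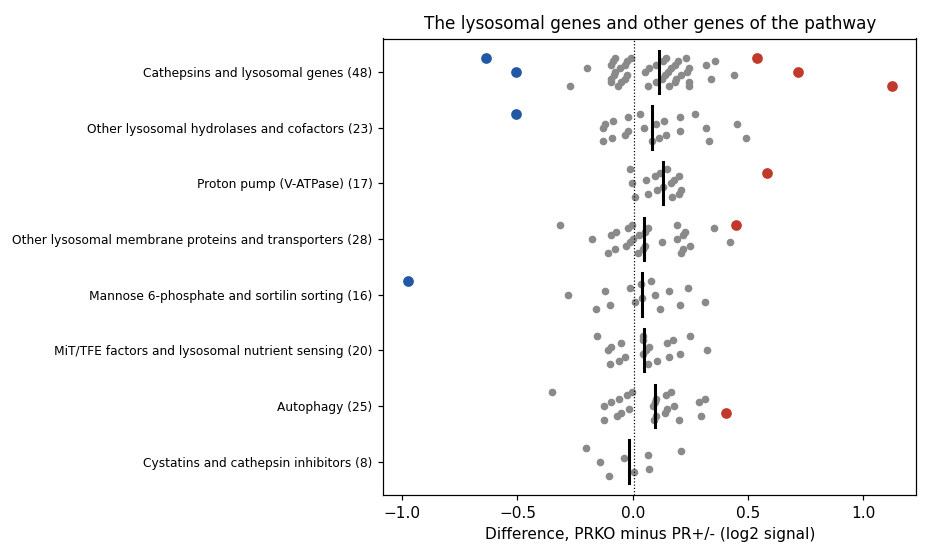
Difference in log2 signal, PRKO minus PR+/-, 1 point per gene, for the 48 cathepsin and lysosomal genes and 7 lists of other pathway genes, with the number measured; red and blue points passed the test, black bars are list medians, and the dotted line is the median of all genes. List medians lie between -0.02 (cystatins, several with low signals) and 0.13 (proton pump), and 0.11 for the 48 genes.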

How the data were processed

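RNA of cumulus oocyte complexes was labelled as biotinylated cRNA for Affymetrix whole-transcript arrays, per the labels' protocols. The authors deposited a log2 signal for each probe set on each array. The submitters' processing notes name Partek; how background was corrected, arrays normalized and probes summarised is not given in the sources used. The base was read from the values, which reach 14.08 and would exceed a 16-bit scanner's 65535 as natural or base 10 logarithms. Precision is limited by the number of arrays.

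Of 35556 probe sets, 21789 had 1 gene symbol and were tested, two-sided, with lmFit and eBayes of limma 3.58.1 under R 4.3.3, without a signal filter or block; the prior had 6.04 degrees of freedom. Left out were 1621 probe sets with several symbols and 12146 without any. A gene stands by its probe set with the highest mean. All 48 members matched RefSeq by Entrez identifier. The members and lists were chosen with earlier results of these data known. All 48 members could be named, and from other lists the calls and up to 3 more by size. Alternatives were a replicate block, quantile normalization, centring, signal filters, other moderation, array weights, all probe sets, averaged probe sets, other thresholds, marker covariates and each array left out. On simulated data with 200 of 19938 genes changed, the fit called 71.6%, 97% and 100% of genes changed 1.5-, 2- and 4-fold, and 6 of its 185 calls were unchanged genes. Plots were drawn with matplotlib 3.10.9 and tables with pandas 2.3.3 in Python 3.11.15.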

Additional observations from a re-analysis of the deposited data

Results flagged for a closer look

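In 4 of the 148 groups of 4 arrays examined, 1 array stood apart from the other 3 by Dixon's 95% critical value, or 2.7% of groups, where chance gives about 1 in 20. For Ctss, PR+/- replicate 3 was at 4.40 against 4.70 to 4.76 on the other PR+/- arrays (gap over range 0.836). For Lamp2, PR+/- replicate 4 was at 9.25 against 9.45 to 9.49 (0.844). For Slc17a5, PRKO replicate 3 was at 7.31 against 6.97 to 7.02 on the other PRKO arrays (0.836), and for Wipi1 the same array was at 7.07 against 7.27 to 7.31 (0.835).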

How the results depend on the processing

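Over 22 alternatives, Gm2a (1.07 to 1.19) and Lgmn (0.66 to 0.75) kept their calls in all, Ctsl in 21, Ctsz in 19 and Psap in 12. The 5 calls were 2 in the linear model without moderation (Gm2a and Lgmn, 0 lower), 3 when the theca and stroma marker mean was a covariate (1 lower) and 3 with a fold of at least 1.5 (1 lower). The share of all genes called, 2.92% in the main fit, was 0.532%, 1.40% and 1.39% in these settings, in that order. The lower count of 2 was 1 with all probe sets tested, and the higher count of 3 was 5 at an adjusted p under 0.1. In these 2 settings 1.03% and 4.67% of all genes were called. Without 1 array each, total calls ran from 4 to 6, higher calls from 3 to 4 and lower calls from 1 to 2, by the loss of Psap, and the median of 0.11 ran from 0.0678 to 0.138. The 5 calls among other pathway genes were 9 when probe sets under the median signal were removed, 0 without moderation, 2 with all probe sets, 3 with theca and stroma markers, 14 at an adjusted p under 0.1, 1 with the fold limit and 2 to 5 without 1 array. With the median filter 6.23% of the genes kept were called, and without 1 array 1.51% to 2.67% of all genes. The causes were not tested.

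Replicate numbers count pools within a genotype; deviations of same-numbered arrays correlated at 0.08 to 0.153, and 4 of 8 arrays matched their own number best. With the replicate block the counts stayed 5 (3 higher, 2 lower) and 5 and the median 0.11, while Creg1 passed (0.49, adjusted p = 0.0235) and Atp6v0d2 did not (0.58, adjusted p = 0.0665). Differences near 0 changed sign without single arrays: Ctsc (-0.454 to 0.0114), Ctsw (-0.173 to 0.0035), Ctse (-0.0863 to 0.0349), Hexa (-0.0010 to 0.123), Ids (-0.0993 to 0.0153), Idua (-0.141 to 0.0697), Npc1 (-0.0955 to 0.0309), Lamp1 (-0.0465 to 0.0510), Cd63 (-0.0938 to 0.0540) and Cst12 (-0.429 to 0.0131). Ctse was at 0.0044 after quantile normalization, and at 0.0094 and 0.0168 in the fits with stroma or leukocyte markers. Signal over background is unknown, which limits what can be said of the low signals of Ctse, Ctsw, Atp6v0d2 and several cystatin genes.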
